A study of Mus musculus with 10 samples.

Results

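The collagen genes of mouse liver endothelial cells were compared between libraries labelled as lacking the receptor gene Acvrl1 (alias Alk1) and controls. Members were all protein-coding genes with a symbol of the form Col, type number, a, chain number: 44 of the 55385 genes listed in each deposited file. They were grouped as 11 fibrillar genes, 8 basement membrane genes (types 4, 15 and 18), 6 microfibril genes (type 6) and 19 others. Of the 44, 31 passed the filter on low counts and were tested.

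The study sequenced RNA of hepatic endothelial cells from 5 samples with the genotype label KO, titled Alk1-HEC-KO, and 5 samples labelled Control. Non-parenchymal liver cells (all liver cells other than hepatocytes) were taken from a Nycodenz density gradient, and endothelial cells were captured with magnetic beads against CD146. The sources used here do not give the Cre driver, the deleted exons, the age, sex and strain of the mice or the alleles of the controls. Whether the libraries of a group come from separate animals is not stated either, so that p-values here reflect only the scatter among these libraries, and this may be technical.

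Acvrl1, the targeted gene, was checked first. It measured 124, 125, 136, 114 and 135 CPM (counts scaled to the size of the library) in controls 1 to 5, and 239, 246, 250, 258 and 245 CPM in the knockout-labelled libraries 1 to 5. The groups did not overlap, and the level was 1.95-fold higher in the libraries labelled as knockout (log2 fold change 0.96 ± 0.05 SE, adjusted p = 1.7e-07, edgeR quasi-likelihood test). This direction goes against the label at the level of the whole gene, and reads inside and outside a deleted part cannot be told apart in these values. All directions below are those of the libraries labelled Alk1-HEC-KO.

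Each library held between 23489494 and 23602771 estimated counts. Pan-endothelial markers (8 genes) summed to between 9617 and 11089 CPM in the controls and between 9973 and 10693 CPM in the knockout-labelled libraries, and in TPM to between 4008 and 4620 and between 4904 and 5516, without overlap. Of these 8, 3 rose (37.5%: Pecam1, Tie1, Emcn), 2 fell (25%: Tek, Kdr), and the groups did not overlap for 6. Over all genes tested, 10.6% rose, 9.08% fell and 15.4% did not overlap. Markers of sinusoidal endothelium (6 genes), the endothelium of the liver's capillaries, summed to between 17790 and 20338 CPM in the controls. In the knockout-labelled libraries they summed to between 12224 and 13793 CPM. Of these 6, 5 fell (83.3%), among them Stab1, Oit3 and Fcgr2b. In bulk RNA, fewer cells of a type and less RNA per cell cannot be told apart.

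Collagens are trimers of chains wound into a triple helix. Fibrillar types are secreted as procollagens, trimmed at their ends and laid side by side into the fibres that give tissue its tensile strength; type 4 forms the sheet-like network of basement membranes, on which most endothelium rests; type 6 forms beaded microfibrils. The sinusoidal endothelium of a healthy liver is unusual in having only a sparse matrix in place of a continuous basement membrane, and in liver the hepatic stellate cells and portal fibroblasts are known as the main source of fibrillar collagen.

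Of the 31 tested collagens, 14 rose in the knockout-labelled libraries (45.2%) and 2 fell (6.45%), while 15 did not pass the test. Over all 15043 genes tested, 10.6% rose and 9.08% fell, 19.7% together. Of all these calls, 53.8% were higher, or 65.8% with library size alone as the scale and 72.9% on log2(TPM + 1). The share of collagens that fell is near that background. Members were chosen with earlier results of these data known, so these shares are descriptions and not tests. The median log2 fold change was 0.62 over the 31 collagens and 0 over all genes. The CPM values of the 2 groups did not overlap for 15 of the 31, beside 15.4% of all genes. All knockout-labelled values were higher for 14 of these (8.4% of all genes) and lower for 1 (7.05% of all genes). Rises were found in 4 of 8 basement membrane genes, 6 of 8 tested fibrillar genes, 2 of 4 tested microfibril genes and 2 of 11 tested others. Col28a1 is among the genes that rose and those without overlap, and it enters the median. It passed the low-count filter only through the knockout-labelled libraries, so it is no support for these numbers.

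**Figure D1:**
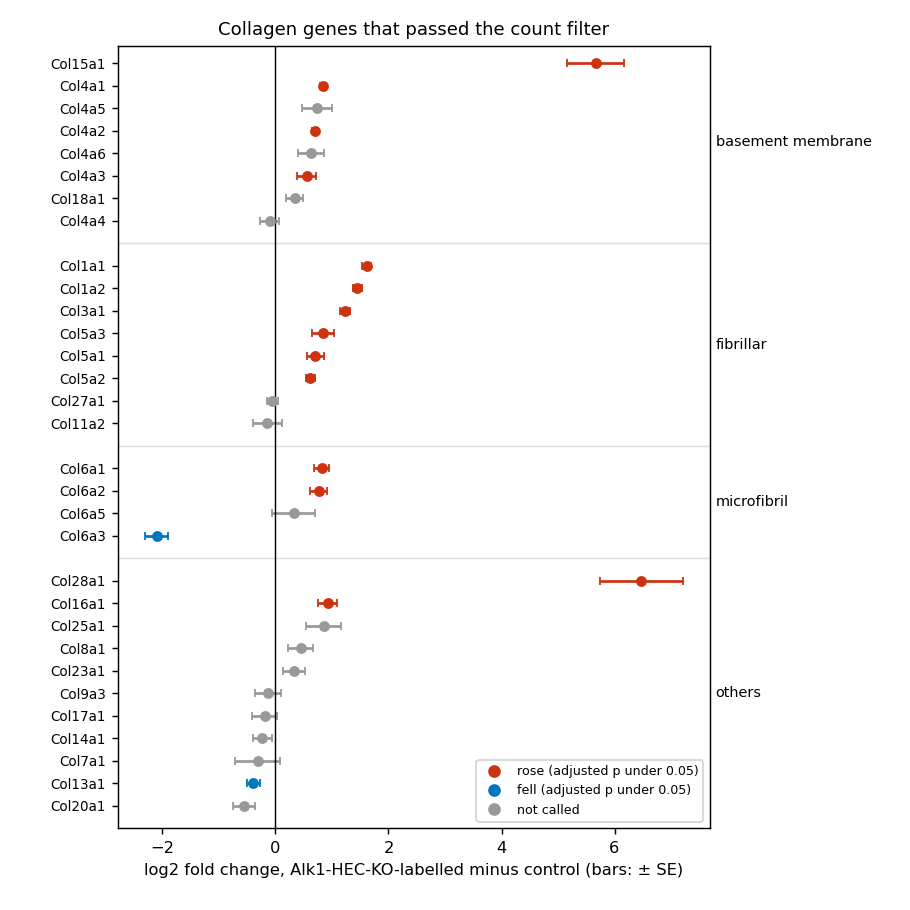
Log2 fold change (knockout-labelled minus control, x axis) of each of the 31 tested collagens by class (y axis); bars are ± SE from edgeR and colours mark the 14 that rose, the 2 that fell and the 15 not called. Col28a1 at 6.47 and Col15a1 at 5.67 lie far to the right of the other collagens, and Col6a3 at -2.10 lies farthest to the left.

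The sequences upstream of the starts of 5 genes on which the results turn are shown, since these genes span the largest rises (Col28a1, Col15a1), a fibrillar gene (Col3a1), and microfibril genes that moved in opposite directions (Col6a2, Col6a3). Each is the 250 bases before the start in the RefSeq table on GRCm38.p6, in the direction of transcription, and none of these windows overlaps an annotated exon. Capitals mark matches on either strand to CAGAC (reverse complement GTCTG, a short SMAD-binding motif), GGCGCC (a SMAD motif that reads the same on both strands), GGGCGG (reverse complement CCGCCC, a GC box), CCAAT (reverse complement ATTGG) and TATAAA (reverse complement TTTATA).
Col28a1, chr6:8192618-8192867, minus strand: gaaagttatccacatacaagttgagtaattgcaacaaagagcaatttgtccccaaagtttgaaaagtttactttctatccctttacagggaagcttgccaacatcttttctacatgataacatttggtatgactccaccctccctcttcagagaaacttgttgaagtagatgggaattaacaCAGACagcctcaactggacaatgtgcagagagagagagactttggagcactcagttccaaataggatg
Col15a1, chr4:47207762-47208011, plus strand: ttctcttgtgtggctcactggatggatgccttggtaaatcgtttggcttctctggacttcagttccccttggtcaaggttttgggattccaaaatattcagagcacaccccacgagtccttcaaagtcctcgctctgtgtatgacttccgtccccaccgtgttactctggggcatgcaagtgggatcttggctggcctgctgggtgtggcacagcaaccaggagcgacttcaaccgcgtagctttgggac
Col3a1, chr1:45311288-45311537, plus strand: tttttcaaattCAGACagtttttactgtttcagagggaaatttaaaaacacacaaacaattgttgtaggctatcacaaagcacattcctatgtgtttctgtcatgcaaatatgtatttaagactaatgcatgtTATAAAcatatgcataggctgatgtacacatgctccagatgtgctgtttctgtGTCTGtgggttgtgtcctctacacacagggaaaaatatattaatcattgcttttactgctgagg
Col6a2, chr10:76623631-76623880, minus strand: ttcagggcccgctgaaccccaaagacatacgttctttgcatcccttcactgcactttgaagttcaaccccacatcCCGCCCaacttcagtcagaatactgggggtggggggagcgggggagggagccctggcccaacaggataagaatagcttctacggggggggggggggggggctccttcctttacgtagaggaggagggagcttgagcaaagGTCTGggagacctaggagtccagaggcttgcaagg
Col6a3, chr1:90843972-90844221, minus strand: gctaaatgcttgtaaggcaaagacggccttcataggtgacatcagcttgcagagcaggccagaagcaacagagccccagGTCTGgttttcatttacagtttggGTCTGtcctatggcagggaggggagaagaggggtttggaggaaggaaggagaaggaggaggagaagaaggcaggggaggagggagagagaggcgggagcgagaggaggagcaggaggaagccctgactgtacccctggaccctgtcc

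The Col28a1 window holds 1 CAGAC match, 68 bases before the start, and the Col15a1 window holds none of the 5 motifs. The Col15a1 start in RefSeq (47208012) lies upstream of the start of the GENCODE gene that was counted (47208161), so that window does not abut the counted gene. The Col3a1 window holds 2 matches to CAGAC and 1 to TATAAA. The Col6a2 window shown holds 1 match each to CAGAC and GGGCGG; the table holds another Col6a2 window, not shown because it overlaps a Col6a2 exon, with 0 matches to CAGAC and 3 to GGGCGG. The Col6a3 window holds 2 to CAGAC. In the table, 35 of the 44 collagens had 38 windows. CAGAC was found in 44.7% of the 38 and in 42.2% of all 32851 windows of this length, GGCGCC in 10.5% and 9.6%, CCAAT in 34.2% and 33.8%, and TATAAA in 13.2% and 12.4%. GGGCGG was found in 57.9% of collagen windows and 32.7% of all. A match describes letters in the window and is no evidence of binding.

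Among basement membrane collagens, the 2 abundant chains of type 4 rose, and Col15a1 went from rank 15 of the 44 collagens by TPM in the controls to rank 4. Col4a1 and Col4a2 encode the chains of the common type 4 trimer. Col4a1 measured 1398, 1330, 1466, 1403 and 1440 CPM in the controls and 2476, 2607, 2301, 2600 and 2589 CPM in the knockout-labelled libraries. The groups did not overlap, and Col4a1 rose 1.79-fold (log2 fold change 0.84 ± 0.06 SE, adjusted p = 6.1e-07). Col4a2 measured 709, 709, 811, 750 and 719 CPM in the controls and 1187, 1200.5, 1119, 1257 and 1239 CPM in the knockout-labelled libraries. It rose 1.62-fold, also without overlap (log2 fold change 0.70 ± 0.06 SE, adjusted p = 3.6e-06). The 2 genes lie head to head on chromosome 8, and they overlap by 22 bases at their annotated starts.

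Type 15 and type 18 collagens, the multiplexins, are proteoglycans of vascular basement membranes whose ends can be released as fragments that act on blood vessels. Col15a1 (ENSMUSG00000028339.17, chr4:47208161-47313167 on GRCm38, plus strand) measured 1.60, 2.06, 1.66, 1.35 and 8.33 CPM in the controls and 173, 167, 108, 186 and 133 CPM in the knockout-labelled libraries. The lowest knockout-labelled library was far above the highest control, and control 5 stood above the other controls. Col15a1 rose 51.2-fold in mean CPM (log2 fold change 5.67 ± 0.50 SE, adjusted p = 7.6e-05), the seventh largest log2 fold change of the 15043 genes. Without control 5, the fold of means was 92.0 and the log2 fold change 6.52 (adjusted p = 1.3e-07). Its relative Col18a1, from which endostatin is cut, measured 19.97 ± 5.33 CPM in the controls and 25.3 ± 1.89 CPM in the knockout-labelled libraries (SD, n = 5), with overlap, and was not called (adjusted p = 0.16, edgeR). With the mean log2 CPM of hepatocyte markers as a covariate, Col18a1 passed the test (log2 fold change 0.76, adjusted p = 0.0019), as it did on log2(TPM + 1) (adjusted p = 0.043).

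The remaining type 4 chains form the specialised networks known from kidney and other basement membranes and were low. Col4a3 measured 11.2, 9.18, 5.50, 10.03 and 8.20 CPM in the controls and 10.3, 13.2, 12.7, 15.4 and 13.01 CPM in the knockout-labelled libraries. The groups overlapped, and the rise (log2 fold change 0.55 ± 0.17 SE, adjusted p = 0.037, edgeR) failed the threshold in 13 of 24 alternative analyses. Col4a4, whose start lies 71 bases from that of Col4a3, measured 10.2 ± 2.51 CPM in the controls and 9.54 ± 1.26 CPM in the knockout-labelled libraries (adjusted p = 0.72, edgeR). Col4a5 went from 2.15 ± 0.65 to 3.59 ± 1.13 CPM (adjusted p = 0.069, edgeR) and Col4a6 from 0.776 ± 0.227 to 1.21 ± 0.108 CPM (adjusted p = 0.078, edgeR), the latter without overlap. Neither was called, although Col4a5 passed in DESeq2 (adjusted p = 0.043) and without knockout-labelled library 4.

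Fibrillar collagens rose as 6 of the 8 tested genes, all of types 1, 3 and 5. Col1a1 and Col1a2 encode the 2 chains of type 1 collagen, the main collagen of fibrous tissue. Col1a1 measured 9.501, 10.3, 9.55, 9.85 and 10.03 CPM in the controls and 26.3, 33.0, 32.6, 28.8 and 30.2 CPM in the knockout-labelled libraries. The controls spanned less than 1 CPM and the groups lay far apart: Col1a1 rose 3.06-fold (log2 fold change 1.61 ± 0.07 SE, adjusted p = 5.0e-08). Col1a2 measured 10.5, 10.9, 9.73, 11.9 and 11.8 CPM in the controls and 26.1, 29.9, 31.5, 29.7 and 32.5 CPM in the knockout-labelled libraries. It rose 2.73-fold without overlap (log2 fold change 1.45 ± 0.08 SE, adjusted p = 1.3e-07).

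Type 3 collagen, a homotrimer of Col3a1 chains, forms the thin fibres of vessel walls and of the liver's reticular scaffold. Col3a1 measured 26.2, 31.5, 25.1, 32.2 and 34.8 CPM in the controls and 67.1, 66.0, 74.5, 72.7 and 70.7 CPM in the knockout-labelled libraries. It rose 2.34-fold without overlap (log2 fold change 1.23 ± 0.09 SE, adjusted p = 1.1e-06). Type 5 collagen starts and limits the growth of type 1 fibrils. Its chain gene Col5a2 lies tail to tail with Col3a1 on chromosome 1, 24614 bases apart, and measured 51.0, 54.9, 48.6, 50.5 and 67.2 CPM in the controls and 84.6, 84.7, 86.7, 78.2 and 84.6 CPM in the knockout-labelled libraries. Col5a2 rose 1.54-fold (log2 fold change 0.62 ± 0.08 SE, adjusted p = 1.6e-04) without overlap, with control 5 the highest control. Col5a1 went from 4.41 ± 0.651 to 7.21 ± 1.35 CPM (adjusted p = 0.0053, edgeR) and Col5a3 from 1.07 ± 0.115 to 1.93 ± 0.430 CPM (adjusted p = 0.0088, edgeR), both without overlap. The rise of Col5a1 was lost with the hepatocyte covariate (log2 fold change 0.48, adjusted p = 0.13).

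The other tested fibrillar genes were not called. Col27a1, whose product is a fibrillar collagen of cartilage and developing tissues, was the sixth most abundant collagen in the controls and measured 33.7 ± 4.22 CPM there and 32.5 ± 3.03 CPM in the knockout-labelled libraries (adjusted p = 0.74, edgeR). Col11a2, a chain of the cartilage type 11, measured 2.05 ± 0.753 and 1.86 ± 0.321 CPM (adjusted p = 0.76, edgeR). The groups overlapped for both genes, and the log2 difference of each changed sign between analyses. Col2a1, Col11a1 and Col24a1 had too few counts to be tested.

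Type 6 microfibrils are assembled from a chain of each of Col6a1, Col6a2 and Col6a3, and the 3 genes did not move together. Col6a1 measured 5.30, 6.05, 4.54, 6.30 and 5.85 CPM in the controls and 10.2, 7.77, 10.4, 8.83 and 12.3 CPM in the knockout-labelled libraries. Col6a2 measured 5.47, 6.18, 5.28, 6.34 and 4.27 CPM in the controls and 7.97, 8.71, 9.73, 8.12 and 12.4 CPM in the knockout-labelled libraries. Both rose without overlap, Col6a1 by a log2 fold change of 0.82 ± 0.14 SE (adjusted p = 0.0011) and Col6a2 by 0.77 ± 0.15 SE (adjusted p = 0.0028). These 2 genes are neighbours on the same strand of chromosome 10, 85161 bases apart.

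Col6a3 (ENSMUSG00000048126.16) lies on chromosome 1 and fell. It measured 32.2, 16.05, 20.02, 15.8 and 16.5 CPM in the controls and 4.16, 4.27, 5.50, 4.67 and 4.81 CPM in the knockout-labelled libraries. The lowest control was above the highest knockout-labelled library by a wide margin, and control 1 stood above the other controls. Col6a3 was 4.29-fold lower (log2 fold change -2.10 ± 0.20 SE, adjusted p = 2.6e-05), and the log2 fold change was -1.87 without control 1 (adjusted p = 1.2e-06). The ratio of counts to TPM of Col6a3, which follows the length of the transcripts that reads were assigned to, varied between libraries of both groups, and with this length as an offset the log2 fold change was -2.02 (adjusted p = 7.0e-05). Col6a5, whose chain can take the place of the Col6a3 chain, was not called (0.620 ± 0.161 and 0.778 ± 0.380 CPM, adjusted p = 0.61, edgeR). Col6a4 and Col6a6 were not tested.

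**Figure D2:**
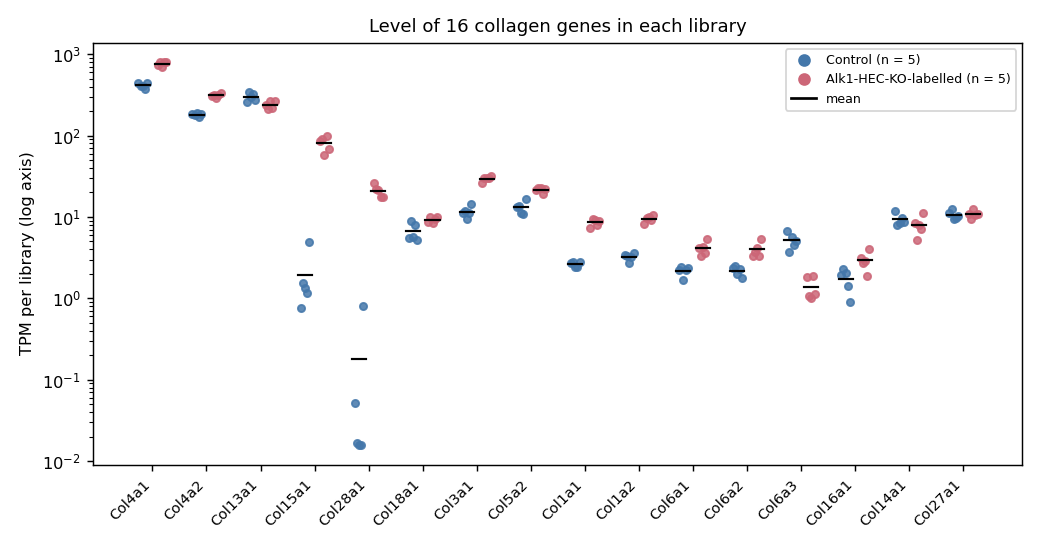
TPM (a level per length, log axis) of 16 collagens in each of the 5 control and 5 knockout-labelled libraries; points are libraries and black lines are means. Col15a1 and Col28a1 separate the groups most, with control 5 above the other controls for both, and Col6a3 separates them in the opposite direction to Col6a1 and Col6a2.

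The other types include FACIT collagens (which attach to fibrils), transmembrane, network-forming and remaining collagens, and here 2 genes rose and 1 fell. Col28a1 encodes a collagen with von Willebrand A domains that is best known from the surroundings of glial cells in peripheral nerves. Col28a1 (ENSMUSG00000068794.7, chr6:7997808-8192617, minus strand) measured 0.126, 0.0429, 0.0436, 0.0450 and 2.05 CPM in the controls and 53.8, 43.3, 42.8, 38.0 and 31.5 CPM in the knockout-labelled libraries. The log2 fold change was 6.47 ± 0.73 SE (adjusted p = 3.5e-04). Of the 14 collagens that rose, 13 had at least 10 counts in all 5 controls. Col28a1 had them in 1, so it passed the low-count filter only through the knockout-labelled libraries. Its call is therefore no support for the count of 14, and its adjusted p is no support for its own rise. The values of Col28a1 are descriptions. In counts, controls 1 to 4 held 6 in all and control 5 held 48, against 5005 in the 5 knockout-labelled libraries. Control 5 was 31.8-fold above the mean of controls 1 to 4. The fold of mean CPM was 90.8 with all controls. Scaled to the same number of libraries, the fold of summed counts was 668 without control 5 (95% exact interval 307 to 1820, counting error only). The log2 fold change was then 9.22. Ngfr, a marker of stellate cells and also of nerve-associated glia, went from 0.791 to 1.87 CPM (adjusted p = 0.028, edgeR). It is 1 of 18 mesenchymal markers read here, of which 4 rose, 1 fell and 13 were not called. With the mesenchymal marker list, which holds Ngfr, as a covariate the log2 fold change of Col28a1 was 6.43. That covariate is a mean over many markers, and no list of glial markers was read. The part of glia or stellate cells in the Col28a1 result was not tested.

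Col13a1 encodes a transmembrane collagen of cell adhesion sites, and was the second most abundant collagen in controls per length. It measured 406, 529, 512, 586 and 429 CPM in the controls and 385, 314, 424, 343 and 412 CPM in the knockout-labelled libraries. The groups overlapped. Col13a1 fell by a log2 fold change of -0.39 ± 0.11 SE (adjusted p = 0.028), but failed the threshold in 9 of 24 alternatives, among them the hepatocyte covariate (log2 fold change -0.28, adjusted p = 0.31) and leaving out control 2 (adjusted p = 0.065), control 3 (0.059), control 4 (0.066) or knockout-labelled library 2 or 4. Col16a1, a FACIT collagen that binds to the surface of fibrils, went from 2.49 ± 0.478 to 4.74 ± 0.694 CPM without overlap and rose (log2 fold change 0.92 ± 0.16 SE, adjusted p = 0.0017). Its rise failed with length offsets (adjusted p = 0.097) and on log2(TPM + 1) (adjusted p = 0.057).

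The other 8 tested genes of these types were not called. Col8a1, a network collagen of vessel walls, measured 12.4, 12.9, 10.6, 8.95 and 21.01 CPM in the controls and 13.5, 19.9, 21.8, 15.7 and 19.3 CPM in the knockout-labelled libraries (adjusted p = 0.19). Control 5 was again the highest control, and without it Col8a1 passed (log2 fold change 0.68, adjusted p = 0.0097). Col14a1, a FACIT collagen of fibril surfaces, measured 24.6 ± 4.93 and 20.9 ± 4.31 CPM (adjusted p = 0.39, edgeR). Col20a1 went from 1.51 ± 0.122 to 1.03 ± 0.277 CPM (adjusted p = 0.072, edgeR) and passed in limma-voom (adjusted p = 0.047) and without knockout-labelled library 3. Col25a1, transmembrane, went from 0.577 ± 0.160 to 1.05 ± 0.439 CPM (adjusted p = 0.071, edgeR). For Col17a1, Col23a1, Col7a1 and Col9a3 the adjusted p lay between 0.27 and 0.76.

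The 13 collagens below the filter had at most 17 counts in any library (Col12a1) and at most 88 in all 10 libraries together. Besides the 3 fibrillar and 2 microfibril genes above they were Col8a2, Col9a1, Col9a2, Col10a1, Col12a1, Col19a1, Col22a1 and Col26a1. Col9a1 had no count in any library. These genes were not tested in the main comparison.

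Levels between genes were compared in TPM, which is per length. In controls, Col4a1 (416 TPM), Col13a1 (299 TPM) and Col4a2 (181 TPM) led, and the fourth, Col5a2, was at 13.1 TPM. In knockout-labelled libraries the order was Col4a1 (769 TPM), Col4a2 (315 TPM), Col13a1 (241 TPM) and Col15a1 (80.3 TPM), which ranked number 15 in controls. Col28a1 went from rank 32 to rank 7 (0.182 to 21.03 TPM); its control mean rests on control 5 (0.811 TPM), with controls 1 to 4 between 0.0156 and 0.0515 TPM. Col6a3 went from rank 9 to rank 20 (5.16 to 1.38 TPM). Mean levels of at least 1 TPM were reached by 20 collagens in the controls and 23 in the knockout-labelled libraries. Col28a1, Col23a1 (0.9985 and 1.31 TPM) and Col4a5 (0.629 and 1.07 TPM) reached it only in the knockout-labelled libraries. Of these, Col23a1 and Col4a5 were not called.

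Summed over all 44 genes, collagen transcripts were 983 ± 24.5 TPM in the controls and 1558 ± 61.1 TPM in the knockout-labelled libraries (SD, n = 5), 1.58-fold higher without overlap. The basement membrane sum went from 610 ± 34.8 to 1179 ± 74.2 TPM and the fibrillar sum from 43.8 ± 5.43 to 84.5 ± 4.78 TPM, each 1.93-fold higher and without overlap. The microfibril sum was 9.80 ± 0.958 and 9.81 ± 1.499 TPM, with Col6a1 and Col6a2 higher and Col6a3 lower. The sum of the others overlapped between groups (320 ± 32.3 and 284 ± 29.4 TPM). Within collagen transcripts other than Col4a1 and Col4a2, Col13a1 made up 77.4 ± 3.43% in the controls and 50.7 ± 3.74% in the knockout-labelled libraries, and Col15a1 0.505 ± 0.458% and 17.1 ± 4.03%. These sums and shares are descriptions with no test, and TPM holds a fixed total, so that a change in 1 abundant gene shifts the share of the rest.

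**Figure D3:**
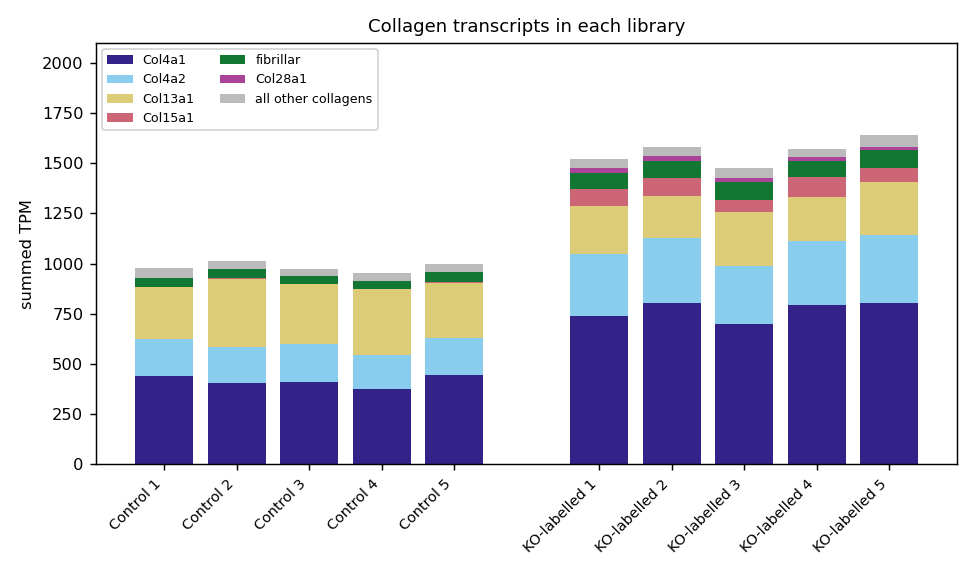
Summed TPM of all 44 collagens (bars from 0) in each library, split into Col4a1, Col4a2, Col13a1, Col15a1, the fibrillar class, Col28a1 and all others. Control bars lie between 952 and 1015 TPM and knockout-labelled bars between 1477 and 1638 TPM, with Col4a1 and Col4a2 the largest parts of the added height.

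Chains that assemble in 1 trimer were set against each other as TPM ratios. Col15a1 was also set against its relative Col18a1, which is a separate type. Col1a1 over Col1a2 was 0.810 ± 0.0567 in the controls and 0.903 ± 0.0581 in the knockout-labelled libraries, Col4a1 over Col4a2 was 2.30 ± 0.0998 and 2.44 ± 0.0594, and Col6a1 over Col6a2 was 1.02 ± 0.187 and 1.05 ± 0.138. All 3 ratios overlapped between groups in TPM, whereas the CPM ratio of Col4a1 to Col4a2 did not (1.91 ± 0.0800 and 2.09 ± 0.0453). Col6a3 over Col6a1 went from 2.41 ± 0.754 to 0.345 ± 0.135 without overlap. Col15a1 over Col18a1 went from 0.323 ± 0.339 to 8.65 ± 1.67, also without overlap, and Col5a1 over Col5a2 overlapped (0.117 ± 0.0169 and 0.139 ± 0.0221). Col8a1 over Col8a2 is not read further, because Col8a2 had at most 12 counts in a library.

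**Figure D4:**
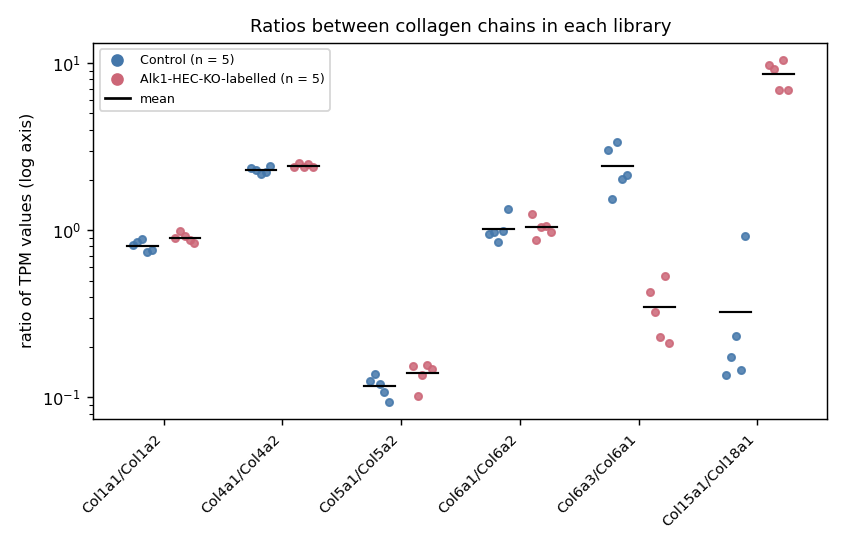
Ratio of TPM values (log axis) of 6 pairs of collagen chains in each control and knockout-labelled library; points are libraries and black lines are means. Col6a3 over Col6a1 and Col15a1 over Col18a1 separate the groups, in opposite directions, while the ratios within types 1, 4 and 5 and Col6a1 over Col6a2 overlap.

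Other liver cells also make collagen, and marker lists of those cells were read in the same libraries. Of 18 mesenchymal markers (stellate cells and fibroblasts, no collagens), 4 rose (Rgs5, Dpt, Ngfr, Postn), 1 fell (Ecm1) and 13 were not called, and none was at 0 in all libraries. Thus 22.2% of the list rose, beside 10.6% of all genes, and 5.56% fell, beside 9.08% of all genes. Postn, a matrix protein of fibroblasts, went from 4.50 ± 1.14 to 11.6 ± 2.74 CPM (adjusted p = 4.8e-04, edgeR) and Dpt from 1.55 ± 0.411 to 2.77 ± 0.555 CPM (adjusted p = 0.020, edgeR). Ecm1, which liver endothelium and stellate cells can express, went from 236 ± 38.6 to 141 ± 21.5 CPM (adjusted p = 0.0017, edgeR). The list summed to between 319 and 519 CPM in the controls and between 234 and 377 CPM in the knockout-labelled libraries, or, without Ecm1, to between 108 and 219 and between 121 and 216 CPM. The fibroblast gene Dcn was 67.1 and 76.2 CPM and not called (adjusted p = 0.70, edgeR). With the mean log2 CPM of this list as a covariate, 13 of the 14 collagens passed the test, the exception being Col4a3 (log2 fold change 0.54, adjusted p = 0.072, edgeR, beside 0.55 without the covariate). Col28a1, which passed the low-count filter only through the knockout-labelled libraries, is among the 13 and is no support for that number. Over all genes, the number that rose also changed little with this covariate, from 1593 to 1513. The mean of this list mixes members that rose with Ecm1, which fell, and the part of other cells in the collagen results was not tested. Col1a1 then had a log2 fold change of 1.63, Col1a2 of 1.41, Col3a1 of 1.17 and Col6a3 of -2.04.

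Bile duct markers were higher: 5 of 6 rose (83.3%, beside 10.6% of all genes), among them Epcam, Spp1 and Sox9. The list summed to between 182 and 262 CPM in the controls and between 359 and 614 CPM in the knockout-labelled libraries. The part of bile duct cells in the collagen results was not tested. Of 12 hepatocyte markers 5 fell (41.7%, beside 9.08% of all genes). This list ranged from 500.2 to 2023 CPM in the controls and from 480 to 1079 CPM in the knockout-labelled libraries. With the hepatocyte covariate 12 of the 14 collagens passed the test, while over all genes the number that rose went from 1593 to 825. Col28a1 is among the 12 and again is no support for that number. Col4a3 had a log2 fold change of 0.62 (0.55 without the covariate) and Col5a1 of 0.48 (0.71 without it), both with an adjusted p of 0.13 in edgeR. No smooth muscle marker (of 5) or macrophage marker (of 6) was called by edgeR, DESeq2 or limma-voom, and at an unadjusted p under 0.05 edgeR gave 0 and 1. In the remaining lists, 1 mesothelial marker (Gpm6a) of 5 and 1 lymphocyte marker (Cd3d) of 5 fell (20% each, beside 9.08% of all genes).

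The genes that make, process, bind and degrade collagen were described by role. These lists, like the marker lists above, were chosen with earlier results of these data known. Their shares beside those of all genes are therefore descriptions and not tests. Of 17 tested enzymes and helpers of chain modification, 3 rose (17.6%) and 3 fell (17.6%), beside 10.6% of all tested genes that rose and 9.08% that fell, with a median log2 fold change of -0.04. P3h2, a prolyl 3-hydroxylase with type 4 collagen among its substrates, measured 34.5, 43.3, 37.2, 46.0 and 36.1 CPM in the controls and 10.1, 11.1, 10.3, 9.503 and 10.7 CPM in the knockout-labelled libraries. The groups lay far apart, and P3h2 fell (log2 fold change -1.93 ± 0.09 SE, adjusted p = 5.0e-08), while Col4a1 and Col4a2 rose. Colgalt2, a collagen galactosyltransferase, rose from 25.2 ± 4.70 to 38.2 ± 2.36 CPM (adjusted p = 0.0025, edgeR), and Plod1, a lysyl hydroxylase, from 413 ± 23.46 to 507 ± 28.1 CPM (adjusted p = 0.0030, edgeR).

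Of 10 genes of folding and secretion, 3 rose (30%, beside 10.6% of all genes) and 1 fell (10%, near the 9.08% of all genes). Serpinh1, the chaperone HSP47 that binds procollagen, rose from 373 ± 61.8 to 543 ± 44.7 CPM (adjusted p = 0.0033, edgeR). Sparc, a collagen-binding matrix protein, rose from 1804 ± 150 to 2624 ± 119.6 CPM (adjusted p = 9.8e-05, edgeR), and Creb3l1, a transcription factor of collagen secretion, from 27.4 ± 3.02 to 37.7 ± 4.80 CPM (adjusted p = 0.0053, edgeR). Of 7 tested genes of propeptide cleavage, 3 rose (42.9%, beside 10.6% of all genes) and 0 fell, and 0 were lower at an unadjusted p under 0.05 in edgeR or called lower by DESeq2 or limma-voom. Bmp1, the procollagen C-proteinase, measured 3.66, 4.25, 2.97, 3.60 and 3.63 CPM in the controls and 12.2, 14.7, 14.3, 15.6 and 14.8 CPM in the knockout-labelled libraries. It rose 3.96-fold without overlap (log2 fold change 1.98 ± 0.11 SE, adjusted p = 1.4e-07). Adamts2, the N-proteinase of fibrillar procollagens, rose from 3.13 ± 0.749 to 5.75 ± 1.07 CPM (adjusted p = 0.0055, edgeR); the proprotein convertase Furin rose 1.14-fold (adjusted p = 0.025, edgeR) but failed the threshold in 11 of 24 alternatives.

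Of 7 crosslinking genes, 1 rose and 1 fell (14.3% each, beside 10.6% of all tested genes that rose and 9.08% that fell). The lysyl oxidase relative Loxl1 rose (2.75 ± 0.372 to 4.43 ± 0.606 CPM, adjusted p = 0.0055, edgeR) and Loxl3 fell (56.8 ± 4.10 to 42.3 ± 4.70 CPM, adjusted p = 0.0023, edgeR). Of 7 tested proteoglycans 0 rose (also 0 at an unadjusted p under 0.05 in edgeR, and 0 in DESeq2 and limma-voom) and 2 fell (28.6%, beside 9.08% of all genes). Prelp, which anchors basement membranes to the matrix beneath, measured 412, 354, 334, 449 and 342 CPM in the controls and 136, 134, 175, 146 and 141 CPM in the knockout-labelled libraries. Prelp fell without overlap (log2 fold change -1.37 ± 0.10 SE, adjusted p = 1.2e-06), and Bgn (biglycan) fell by less (log2 fold change -0.57 ± 0.07 SE, adjusted p = 6.4e-05).

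Of 9 tested collagen receptors, 4 rose (44.4%, beside 10.6% of all genes) and 1, Itga1, fell (11.1%, near the 9.08% of all genes). The receptor kinase Ddr1 rose from 7.32 ± 1.36 to 13.9 ± 3.07 CPM (adjusted p = 0.0016, edgeR), the integrin chain Itga2 from 1.32 ± 0.222 to 2.62 ± 0.561 CPM (adjusted p = 0.0035, edgeR), and Adgrg1, an adhesion receptor that binds type 3 collagen, from 294 ± 29.4 to 399.8 ± 24.8 CPM (adjusted p = 9.0e-04, edgeR). Of 8 tested genes of collagen degradation, 2 rose (25%, beside 10.6% of all genes) and 1 fell (12.5%, near the 9.08% of all genes). Mmp15, a membrane-bound metalloproteinase, measured 12.8, 12.8, 11.9, 11.4 and 17.5 CPM in the controls and 44.3, 64.2, 54.7, 59.2 and 61.8 CPM in the knockout-labelled libraries. It rose 4.28-fold without overlap (log2 fold change 2.10 ± 0.13 SE, adjusted p = 6.2e-07). The gelatinase Mmp2 rose (2.09 ± 0.502 to 3.39 ± 0.553 CPM, adjusted p = 0.020, edgeR) and the collagenolytic cathepsin Ctsk fell (7.19 ± 1.56 to 4.90 ± 0.743 CPM, adjusted p = 0.028, edgeR), the latter call failing in 10 of 24 alternatives.

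With the hepatocyte covariate the calls of Serpinh1, Creb3l1, Adamts2, Loxl1, Itga2, Mmp2, Furin and Ctsk among these genes, and of the marker Dpt, were lost (adjusted p between 0.066 and 0.26, edgeR), whereas those of P3h2, Bmp1, Mmp15, Prelp, Bgn, Sparc, Plod1, Colgalt2, Loxl3, Ddr1 and Adgrg1 were not. The covariate moved the log2 fold change of Serpinh1 from 0.54 to 0.46, of Creb3l1 from 0.46 to 0.38, of Adamts2 from 0.88 to 0.74, of Loxl1 from 0.69 to 0.66, of Itga2 from 0.98 to 0.83, of Mmp2 from 0.70 to 0.78, of Furin from 0.19 to 0.20, of Ctsk from -0.55 to -0.58 and of Dpt from 0.83 to 0.57. Over all genes, the number that fell went from 1366 to 661 with it. Mmp2 also failed without knockout-labelled library 3 (adjusted p = 0.054).

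**Figure D5:**
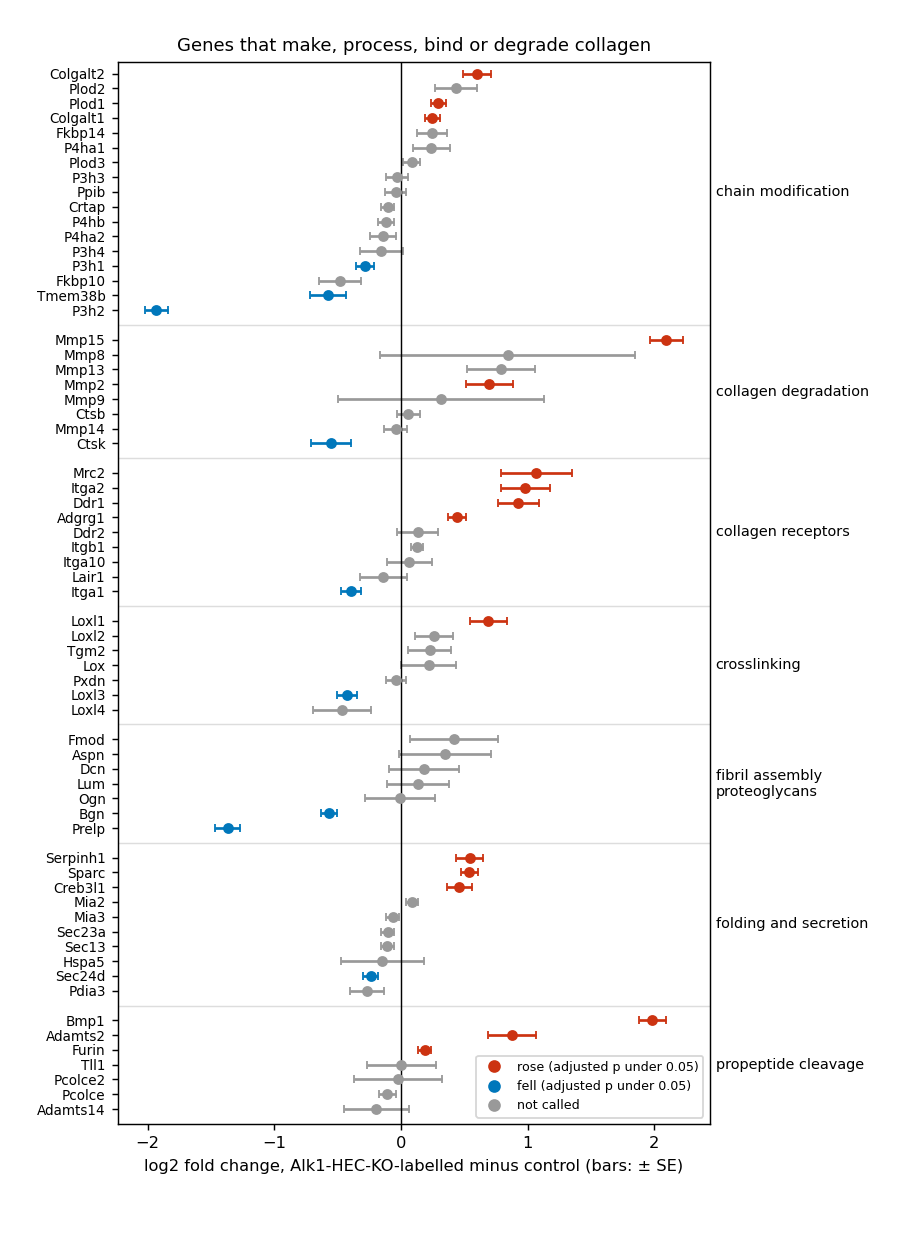
Log2 fold change (knockout-labelled minus control, x axis) of the tested genes of collagen modification, folding, cleavage, crosslinking, fibril binding, reception and degradation (y axis, by role); bars are ± SE from edgeR and colours mark genes that rose, fell or were not called. Mmp15 at 2.10 and Bmp1 at 1.98 lie farthest right, and P3h2 at -1.93 and Prelp at -1.37 farthest left.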

How the data were processed

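RNA libraries of 5 Alk1-HEC-KO and 5 Control samples were grouped by their titles. Per the submitters' processing notes, the tools were Trim Galore (0.6.4) and kallisto (0.4.6) and the build GRCm38.p6. The authors deposited expected counts (estimated counts per gene) and TPM values, one file of each per library; how transcripts were summed to genes is not given in the sources used here. Kallisto divides shared reads between similar or overlapping transcripts, and strand use is not stated.

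Gene names and coordinates came from GENCODE M21 (GRCm38), which matched 55144 of 55385 identifiers by stable part; 3 collagens differed in version. Counts were rounded and tested with edgeR 4.0.16 (R 4.3.3; filterByExpr with minimum count 10, 15043 genes; TMM factors 0.943 to 1.04; robust quasi-likelihood test, genotype alone; Benjamini-Hochberg over all genes, threshold 0.05). CPM use TMM-scaled totals; values after ± are SD with n = 5 unless SE is stated. The script was tested on simulated data. Chi-square per degree of freedom between libraries of a group was 11.4 to 32.6, so none was counted as a duplicate.

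Named genes were all collagens, Acvrl1, and the called members with the smallest p of each pathway or marker list (up to 3 each). Outside this rule, Ngfr and Dcn were given with values, and Rgs5, Pecam1, Kdr and Itga1 by name. Members and lists were chosen with earlier results of these data known. Alternatives, run with DESeq2 1.42.0 and limma 3.58.1 besides edgeR, covered scaling, filter, length, TPM pseudocounts of 1 and 0.1, replicate block, marker covariates and left-out libraries. With 5 libraries per group, same-numbered libraries were not treated as pairs.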

Additional observations from a re-analysis of the deposited data

Results flagged for a closer look

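Values of single libraries that stood apart within their group of 5 were found in 14 of 114 groups checked. The criterion was Dixon's, a gap to the nearest value over the range above 0.71. Chance gives about 1 in 20 for independent groups of normally distributed values. The groups checked reuse the same genes in levels, sums, shares and ratios, so the count cannot be set against that rate. Control 5 stood high for Col28a1 (2.05 CPM, other controls 0.0429 to 0.126) and Col15a1 (8.33 CPM, others 1.35 to 2.06). The same library stood high for the shares of these genes in collagen TPM other than Col4a1 and Col4a2 (0.219% for Col28a1 and 1.32% for Col15a1), and for the TPM ratios Col15a1 over Col18a1 (0.926), Col6a1 over Col6a2 (1.34) and Col8a1 over Col8a2 (415, on few Col8a2 counts).

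Control 1 stood high for Col6a3 (32.2 CPM, other controls 15.8 to 20.02) and for the microfibril sum (11.5 TPM). The low or high libraries for type 5 genes were control 4 for Col5a1 (3.28 CPM), knockout-labelled library 5 for Col5a1 (9.54 CPM), knockout-labelled library 4 for Col5a2 (78.2 CPM) and control 3 for Col5a3 (0.872 CPM). Knockout-labelled library 3 stood high for Col20a1 (1.52 CPM).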

How the results depend on the processing

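Across 24 alternatives, 12 collagens (length offsets) to 15 (DESeq2) rose, beside 14 in the main analysis. Leaving out single libraries gave 13 to 14. All these numbers include Col28a1, which is no support for them. The number that fell was 2, but 3 in limma-voom (with Col20a1), 1 without the low-count filter, with the replicate block, with the hepatocyte covariate and without controls 4 and 5 together, and 1 to 3 when single libraries were left out; Col6a3 was called each time. Over all genes, 1593 rose and 1366 fell. With the hepatocyte covariate 825 rose and 661 fell; 685 fell on log2(TPM + 1) and 687 on log2(TPM + 0.1), and 866 fell without controls 4 and 5. Of all calls, 53.8% were higher in the main analysis, 65.8% with library size alone, 72.9% on log2(TPM + 1) and 72.6% on log2(TPM + 0.1). No scaling moved the median of all genes by more than 0.098 (log2).

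The replicate block (1432 genes rose and 1135 fell; among collagens 14 and 1) treats same-numbered libraries as pairs. Correlations of their deviations ran from -0.196 to 0.35, and 1 of 5 numbers correlated best with itself, so the numbers were not taken to pair the libraries.

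Log2 differences of uncalled genes changed sign as follows. On log2(TPM + 1) and log2(TPM + 0.1) they were 0.0357 and 0.067 for Col4a4, 0.0613 and 0.165 for Col11a2, 0.029 and 0.0316 for Col27a1, -0.0039 and -0.0208 for Col6a5, 0.0265 and 0.285 for Col7a1, and 0.239 and 0.462 for Col9a3. With length offsets they were 0.0346 for Col11a2, -0.0457 for Col6a5 and 0.477 for Col9a3. They were 0.169 for Col11a2 with the mesenchymal covariate and 0.0275 for Col27a1 with the hepatocyte covariate. Leaving out single libraries gave -0.222 to 0.0027 for Col4a4 (highest without control 1), -0.107 to 0.011 for Col27a1 (control 2), and, highest without control 3, -0.2996 to 0.0391 for Col11a2, -0.524 to 0.0272 for Col7a1 and -0.224 to 0.0361 for Col9a3. The cause was not tested. Depth limits the 13 collagens below the filter.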
